A study of Mus musculus with 2 samples.

Results

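The genes described here are 36 lysosomal genes of the mouse, of 32285 genes counted in each library. They were taken by symbol from a list of lysosomal genes, and all 36 were found in both libraries. They hold 12 hydrolases (8 proteases and 4 glycosidases), 4 cofactors and sterol transfer proteins, 5 membrane proteins, the transcription factor Tfeb, and 14 genes of the V-ATPase (4 of the V0 sector, 8 of the V1 sector and 2 accessory proteins). Blood from male mice was compared at 2 months (the young library) and 24 months (the old library), with 1 single-cell library for each age. Live cells positive for CD45, CD11b and Ly6G were sorted after red cell lysis. Per the sample labels, they were captured on the BD Rhapsody microwell platform, which tags each mRNA molecule with a unique molecular identifier (UMI). The strain, the number of mice in each library and whether they were pooled are not given in the sources used here. With 1 library for each age, a difference between ages cannot be told apart from a difference between these libraries. No test was therefore made, and each interval is an exact Poisson or binomial 95% interval that covers counting error only.

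The lysosome is the acidic organelle in which proteins, glycolipids and glycans taken up or delivered by autophagy are degraded. Its hydrolases work at low pH, which the V-ATPase maintains: the V1 sector hydrolyses ATP in the cytosol, and the V0 sector carries protons through the membrane. TFEB is a transcription factor that binds E-box letters near the start of many lysosomal genes. In neutrophils, lysosomal enzymes and CD63 also reside in azurophil granules, and monocytes and macrophages are known for large lysosomal enzyme stores.

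The young library held 13599 barcodes with 69599479 UMIs and the old library 14334 barcodes with 128826996 UMIs, and 53 barcodes occurred in both. Filters on gene number and mitochondrial share left 12921 and 13517 cells. Clusters were named from marker genes, and neutrophil-like cells made up 77.8% of the young and 66.1% of the old cells. All 10 neutrophil markers were detected in them, with 12.8% and 32.3% of their UMIs, of which S100a8 and S100a9 alone took 10.7% and 29.3%. Young neutrophil-like cells had a median of 4069 UMIs and old ones 7295. Classical monocyte-like, non-classical monocyte-like, dendritic cell-like, B, T and NK cell-like, platelet-like and erythroid cell-like clusters were also present, although the gate was for Ly6G. Cluster 5 (811 young and 1030 old cells), which held neutrophil markers but was led by platelet genes, stayed unnamed and outside the classes. A cluster like neutrophil progenitors held 64 cells, all of the old library, and was not compared. Levels below are a gene's UMIs per 1000000 UMIs of the class (CPM), and a gene was counted as higher or lower past 1.5-fold, on log2(CPM + 1), when its mean level reached 5 CPM.

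To show what the members share at their starts, RefSeq promoter windows (250 bases before to 50 after the start, GRCm38.p6) were searched for the E-box CACGTG, which reads the same on both strands, and for its longer forms TCACGTG and CACGTGA, which contain it. Of 36 members, 29 had a window (some at more than 1 start), and 11 of these (37.9%) held CACGTG, against 8.09% of 27025 genes with windows. The longer form was in 10 members (34.5%), against 4.29% of all genes. CACGTG was found for 5 of 10 hydrolases, 4 of 10 V-ATPase genes, and the membrane proteins Lamp1 and Mcoln1. The hydrolases were Ctsa, Ctsd, Ctsl, Gaa and Lgmn, and the V-ATPase genes were Atp6v0b, Atp6v0d1, Atp6v0e and Atp6v1a. Ctsa and Lgmn each had 2 windows, and only the window further into the gene held a match. The matching windows of Ctsa, Lgmn, Ctsl, Atp6v0e and Atp6v1a lie wholly within the annotated gene, downstream of its outermost start. A match of letters is not a measured binding site. The window of Lamp1, with 4 matches, is at chr8:13158911-13159210 on the plus strand. That of Ctsd, with 2, is at chr7:142387778-142388077 on the minus strand. That of Atp6v0b, also with 2, is at chr4:117887280-117887579 on the minus strand. That of Gm2a, the member with the lowest old over young ratio in neutrophil-like cells, is at chr11:55097735-55098034 on the plus strand and holds no match. They are printed 5′ to 3′ on the gene's strand, with CACGTG in capitals.
Lamp1: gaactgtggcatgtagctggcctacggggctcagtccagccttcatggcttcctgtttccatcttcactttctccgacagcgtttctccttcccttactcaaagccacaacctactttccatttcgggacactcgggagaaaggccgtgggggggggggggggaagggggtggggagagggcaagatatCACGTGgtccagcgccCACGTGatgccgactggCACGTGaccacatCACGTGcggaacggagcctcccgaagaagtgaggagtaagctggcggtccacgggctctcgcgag
Ctsd: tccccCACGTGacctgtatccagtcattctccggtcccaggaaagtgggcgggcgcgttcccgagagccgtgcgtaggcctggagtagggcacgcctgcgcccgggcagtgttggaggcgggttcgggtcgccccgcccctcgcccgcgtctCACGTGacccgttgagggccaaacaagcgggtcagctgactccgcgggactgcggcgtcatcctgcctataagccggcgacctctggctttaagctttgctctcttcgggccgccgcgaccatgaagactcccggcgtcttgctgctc
Atp6v0b: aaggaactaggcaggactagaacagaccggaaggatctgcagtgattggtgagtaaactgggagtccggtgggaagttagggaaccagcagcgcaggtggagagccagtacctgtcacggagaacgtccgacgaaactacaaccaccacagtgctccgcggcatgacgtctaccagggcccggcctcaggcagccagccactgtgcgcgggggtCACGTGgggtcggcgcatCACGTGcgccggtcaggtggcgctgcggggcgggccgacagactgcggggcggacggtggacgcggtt
Gm2a: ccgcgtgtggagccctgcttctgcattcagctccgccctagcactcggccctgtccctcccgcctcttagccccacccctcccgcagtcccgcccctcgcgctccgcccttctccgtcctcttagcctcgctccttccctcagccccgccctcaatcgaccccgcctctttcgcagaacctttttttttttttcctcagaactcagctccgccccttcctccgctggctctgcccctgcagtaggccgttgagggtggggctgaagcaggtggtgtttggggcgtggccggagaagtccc

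Neutrophil-like cells of the old library held lower levels of several lysosomal genes than those of the young library, while most V1 subunits stood at nearly the same CPM. Of 36 members, 33 reached 5 CPM, and Lgmn, Gaa and Mcoln1 did not. Cd63 alone was past 1.5-fold higher, a call that other ways of weighing and filtering the cells removed, 10 members were past 1.5-fold lower, and 22 lay within 1.5-fold. Over all 7210 genes measured in these cells, 7.86% were higher and 50.1% lower, and the median gene at 50 CPM or more was at -0.68 on the log2 scale. The median log2 ratio was -0.33 for the 33 members, -0.44 for the 10 measured hydrolases and -0.18 for the 14 V-ATPase genes. All lay above the median gene, which was taken at 50 CPM or more, whereas the lists were taken at 5 CPM or more. Set against the median gene, the hydrolase median was 0.23 and the V-ATPase median 0.49, so the direction of both lists turns with the scaling. On that scale 12 members were higher and 4 were lower, against 24.5% and 12.6% of all measured genes. The share of UMIs taken by S100a8 and S100a9 moved with these ratios. With both left out of the total, the medians were -0.09 for hydrolases and 0.15 for the V-ATPase.

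**Figure D1:**
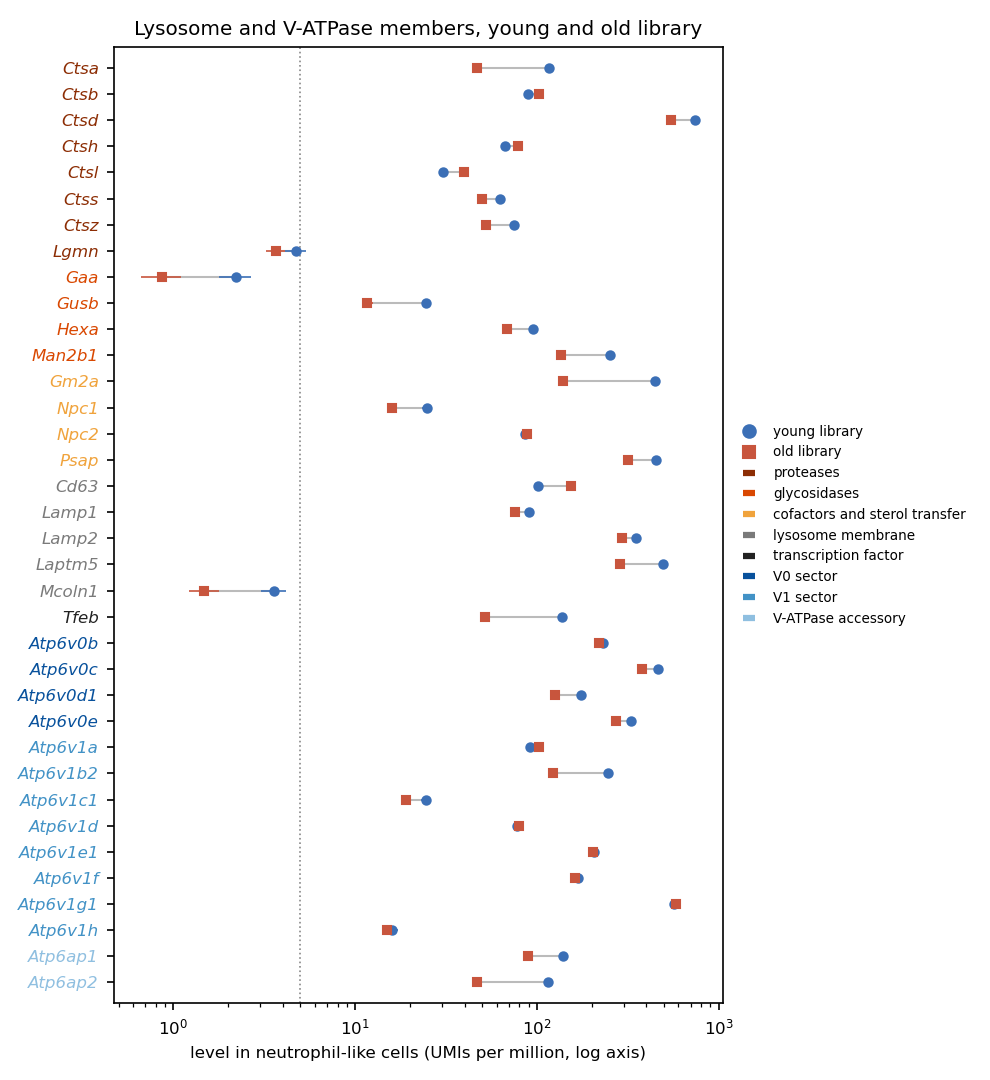
Level of each member in neutrophil-like cells (horizontal log axis, CPM) in the young (blue circles) and old (red squares) library, with exact Poisson 95% intervals and gene names coloured by role. The dotted line marks 5 CPM. Gm2a, Tfeb, Ctsa and Atp6ap2 show wide gaps with the old library lower, and Cd63 shows the old library higher.

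Gm2a had the lowest ratio of all members. It encodes the GM2 activator, which presents the ganglioside GM2 to hexosaminidase A, and lies at chr11:55098115-55113029 (GRCm38). Its level was 444 CPM (438 to 450.2) in the young and 139 CPM (136 to 142) in the old library, a 3.19-fold lower value (3.12 to 3.27). Per cell, 1.99 UMIs were counted in the young library against 1.19 for the old, so Gm2a was lower even though old cells held more UMIs. Of the other cofactors, Psap, the precursor of the saposins, went from 450.1 to 317 CPM. Npc1 and Npc2, which pass cholesterol out of the lysosome, stood at 24.9 and 15.9 CPM and at 86.4 and 88 CPM. Of the 4 cofactor and sterol genes, Gm2a and Npc1 were thus past 1.5-fold lower, against 50.1% of all measured genes. Relative to the median gene, Npc1 turned to 0.063 on the log2 scale.

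Tfeb, the E-box factor of lysosomal genes, lies at chr17:47737030-47792419. It was at 137 CPM (134 to 141) in the young and 51.7 CPM (50.1 to 53.3) in the old library, 2.66-fold lower (2.56 to 2.77). Its UMIs per cell were also fewer, at 0.614 and 0.443. Among the measured members whose promoter window held CACGTG, Ctsa alone was past 1.5-fold lower, against 50.1% of all measured genes. It was 2.49-fold lower (-1.30 on the log2 scale). Atp6v0d1, Ctsd, Atp6v0e and Lamp1 were at -0.48, -0.43, -0.28 and -0.25. Atp6v0b was at -0.07 (229.9 and 219 CPM), Atp6v1a at 0.16 (91.2 and 102 CPM) and Ctsl at 0.37. Mcoln1, Gaa and Lgmn, all under 5 CPM, were at -0.89, -0.78 and -0.29. Whether Tfeb bears on these ratios was not tested.

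Among the 8 proteases, 7 were measured, 1 was lower and none was higher, against 50.1% and 7.86% of all genes. Ctsa, the protective protein of the sialidase and galactosidase complex, went from 117 CPM (114 to 119.9) to 46.9 CPM (45.4 to 48.4), 2.49-fold lower (2.39 to 2.6). Ctsd, the aspartic protease cathepsin D, went from 739 to 549 CPM, a fold of 0.744 (0.733 to 0.755). Per cell, however, Ctsd UMIs went from 3.3 to 4.71. The cysteine cathepsins Ctsb, Ctsh and Ctsl were slightly higher in the old library on the CPM scale, by 1.14-fold, 1.18-fold and 1.31-fold. Their levels were 89.2 and 102 CPM, 66.4 and 78.4 CPM, and 30.5 and 39.9 CPM. Ctss and Ctsz were slightly lower, at 62.9 and 49.9 CPM and at 74.3 and 52.7 CPM. Lgmn, which cleaves after asparagine and activates cathepsins, was at 4.72 and 3.67 CPM, under the level counted as measured.

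The glycosidases were lower in the old library where measured. Man2b1, an alpha-mannosidase, went from 251 to 135 CPM, 1.86-fold lower (1.81 to 1.91). Gusb, the beta-glucuronidase, went from 24.6 to 11.7 CPM, 2.11-fold lower (1.93 to 2.31). Hexa, the alpha chain of hexosaminidase A and the enzyme that GM2A serves, went from 94.8 to 68.9 CPM, which is within 1.5-fold. Relative to the median gene all 3 lay within 1.5-fold. Gaa, the acid alpha-glucosidase, was at 2.2 and 0.862 CPM, too low to count.

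The membrane proteins divided. Cd63, a tetraspanin of azurophil granules and late endosomes, went from 101 CPM (98 to 104) to 154 CPM (151 to 157), 1.53-fold higher (1.48 to 1.58). Its log2 ratio of 0.61 was 0.23 with cells thinned to equal depth and 0.27 with equal weight per cell. It turned to -0.28 without cells rich in granule genes, -0.030 without the granule-high cluster 3 and -0.044 as the mean within the clusters that both libraries filled. Leaving out granule-rich cells took 1.37% of young and 44.9% of old neutrophil-like cells. Laptm5, a lysosomal membrane protein of blood cells, went from 492 to 287 CPM, 1.71-fold lower (1.68 to 1.74). The coat proteins Lamp1 and Lamp2 were within 1.5-fold, at 90.3 and 75.8 CPM and at 349.9 and 294 CPM. Mcoln1, the calcium channel TRPML1, was at 3.58 and 1.48 CPM.

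Of the V-ATPase genes, 3 of 14 were past 1.5-fold lower and none was higher, against 50.1% and 7.86% of all genes. Atp6v1b2, the ATP-binding B subunit of the V1 sector in blood cells, went from 244 CPM (239.9 to 249) to 123 CPM (121 to 126), 1.99-fold lower (1.93 to 2.04). The accessory genes Atp6ap2, which encodes the (pro)renin receptor, and Atp6ap1 were the others. Atp6ap2 went from 115 to 47 CPM, 2.46-fold lower (2.35 to 2.56), and Atp6ap1 from 139 to 89.6 CPM, 1.56-fold lower (1.5 to 1.61). The other 7 V1 genes had folds from 0.776 for Atp6v1c1 to 1.12 for Atp6v1a. Atp6v1g1, a stalk subunit, stood at 570.3 CPM (563 to 577) and 581 CPM (575 to 586). Atp6v1e1, Atp6v1f and Atp6v1d had folds of 0.985, 0.965 and 1.02. The 4 V0 genes lay between 0.716 for Atp6v0d1 and 0.952 for Atp6v0b, with 461 and 379 CPM for the proton-carrying ring subunit Atp6v0c. Counted per cell, Atp6v1g1 went from 2.55 to 4.98 UMIs and Atp6v1b2 from 1.09 to 1.06, so these V1 subunits differed in their ratio on either scale.

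**Figure D2:**
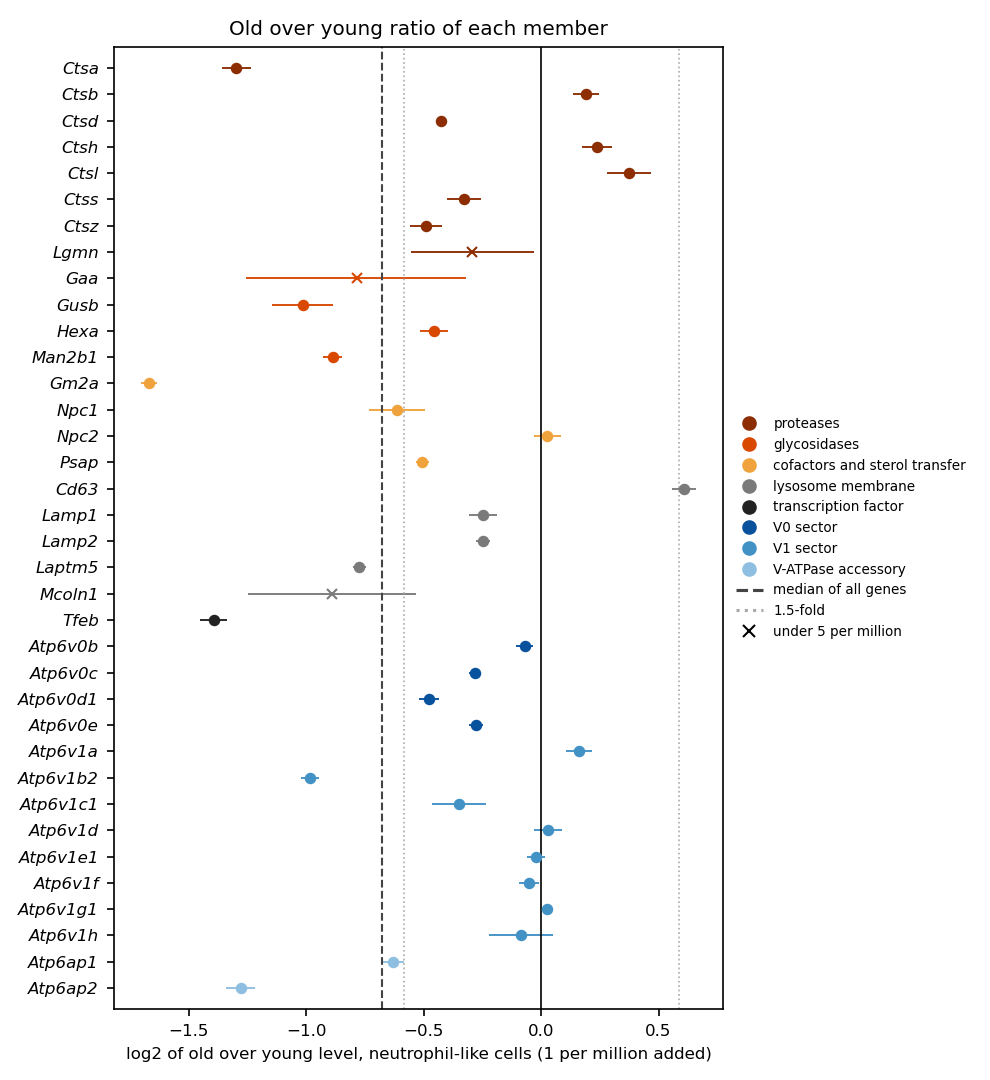
Log2 of the old over the young level in neutrophil-like cells for each member (horizontal axis), coloured by role, with exact 95% intervals for counting error; crosses are genes under 5 CPM. The dashed line is the median of all genes at 50 CPM or more (-0.68), the dotted lines are 1.5-fold. Gm2a, Tfeb, Ctsa and Atp6ap2 lie past 1.5-fold below the dashed line and most V1 genes lie near 0.

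Neutrophil-like cells formed clusters that the libraries filled unequally. Cluster 0 held 5837 young and 267 old cells, cluster 1 held 29 and 4637, cluster 2 held 2212 and 1374, cluster 4 (led by interferon-stimulated genes) held 1715 and 217, and cluster 3 held 77 and 1996. Cluster 3 was led by the granule genes Ltf, Camp and Ngp, which mark younger neutrophils. In the old library, Gm2a was at 719 CPM in cluster 0, 329.8 CPM in cluster 2, 314 CPM in cluster 4, 162 CPM in cluster 1 and 50.1 CPM in cluster 3. Ctsa was 20.5 CPM in cluster 3 against 57.7 CPM in cluster 1 and 78.9 CPM in cluster 2, and Tfeb was 33.6 CPM against 56.6 and 93.6 CPM. Cd63 went the other way, with 245 CPM in cluster 3, 93.7 CPM in cluster 1 and 84.8 CPM in cluster 2. On the CPM scale the granule-high cells were thus the low end for Gm2a, Ctsa and Tfeb and the high end for Cd63 among these 3 clusters. Cluster 3 held a median of 14016 UMIs per cell, against 7416 in cluster 1 and 4251.5 in cluster 2 (both libraries together). In UMIs per cell of the old library, Gm2a was at 0.758 in cluster 3 and 1.3 in cluster 1, and Ctsa at 0.31 and 0.462. Ctsa was at 0.32 in cluster 2. Tfeb, however, was higher per cell in cluster 3 than in cluster 1, at 0.508 and 0.453.

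Over the members in the old library, cluster 3 against cluster 1 had 1 higher and 10 lower of 33, against 10.4% and 24.3% of all measured genes. The hydrolase median was -0.62, with 6 of 10 lower, and the V-ATPase median was -0.14, with 1 of 14 lower, against a median gene of -0.31. Against cluster 2, 1 member was higher and 13 were lower, against 13.5% and 44.9% of all genes. The hydrolase median was -0.85 and the V-ATPase median -0.27 there, against a median gene of -0.71. Relative to the median gene the hydrolases stayed lower (-0.31 and -0.15) and the V-ATPase genes were higher (0.17 and 0.43). Ctsh, Hexa and Gusb were higher in cluster 3 than in both others, at 88.8, 75.8 and 12.4 CPM, and none of them passed 1.5-fold. These counts and medians are on the CPM scale. In UMIs per cell over cluster 1, Ctsb, Ctsd, Ctsz and Man2b1 were also higher in cluster 3, with folds of 1.2, 1.16, 1.45 and 1.25. Ctsa, Ctsl and Ctss were lower per cell, with folds of 0.671, 0.841 and 0.87.

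Where both libraries filled a cluster, most members lay within 1.5-fold, and so did most of all measured genes. In clusters 0, 2 and 4, each with 200 or more cells of either library, 33 members were measured in all 3 and 28 of them lay within 1.5-fold in all 3. The share of all genes within 1.5-fold in all 3 is not given here. Cluster 0 had 3 members higher and none lower, against 9.51% and 8.79% of all genes measured there. Cluster 2 had 1 higher and 1 lower, against 5.56% and 6.97%, and cluster 4 had 1 higher and 3 lower, against 7.34% and 19.9%. Ctsa had folds of 0.996 (0.824 to 1.19), 1.02 (0.908 to 1.15) and 0.835 (0.658 to 1.05), and Gm2a had 1.3, 1.38 and 0.727. Tfeb was lower in each, with folds of 0.94, 0.766 and 0.804, but within 1.5-fold. The mean of the 3 within-cluster ratios gave a hydrolase median of -0.03 and a V-ATPase median of -0.06. Since the clusters were drawn from the same expression values, such cells are alike by construction, and the old cells of cluster 1 have hardly a young counterpart.

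Ctss, the cathepsin S of antigen-presenting cells, was the 1 member past 1.5-fold in all 3 clusters. The share of all genes that did so is not given here. Of the other members measured in all 3, Ctsz was higher and Gusb, Atp6v1h and Atp6ap2 were lower in at least 1 cluster. Ctss went from 63 to 115 CPM in cluster 0, from 28.4 to 69.8 CPM in cluster 2 and from 109 to 197 CPM in cluster 4. Its folds were 1.83 (1.48 to 2.24), 2.45 (2.1 to 2.87) and 1.8 (1.52 to 2.12). Over all neutrophil-like cells it was lower, since clusters 1 and 3 of the old library held 49.9 and 23 CPM. Markers of other cell types differed between the libraries in these clusters too. All 8 classical monocyte markers were detected, and their summed level went from 208 to 281 CPM, from 289 to 309 CPM and from 263 to 429 CPM. In cluster 2, Vcan went from 0.483 to 5.74 CPM and Fn1 from 1.26 to 11.5 CPM, while Ly6c2 went from 160 to 127 CPM and Csf1r from 116 to 101 CPM. The 8 platelet markers, all detected, summed to 103 and 233 CPM in cluster 0, 83.6 and 228 CPM in cluster 2 and 148 and 299 CPM in cluster 4. The erythroid markers summed to 2038 and 2099, 2116 and 4072, and 1584 and 3564 CPM. B, T and NK cell markers went the other way in all 3 clusters. In cluster 2 they summed to 92.6 and 68.9, 19.4 and 10.9, and 18.7 and 4.48 CPM. Dendritic cell and non-classical monocyte markers were higher in the old library in clusters 0 and 2 and lower in cluster 4. Classical monocyte-like cells of the old library held 1320.4 CPM of Ctss and 876 CPM of Fn1. The part of RNA from other cells in the Ctss difference was not tested.

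**Figure D3:**
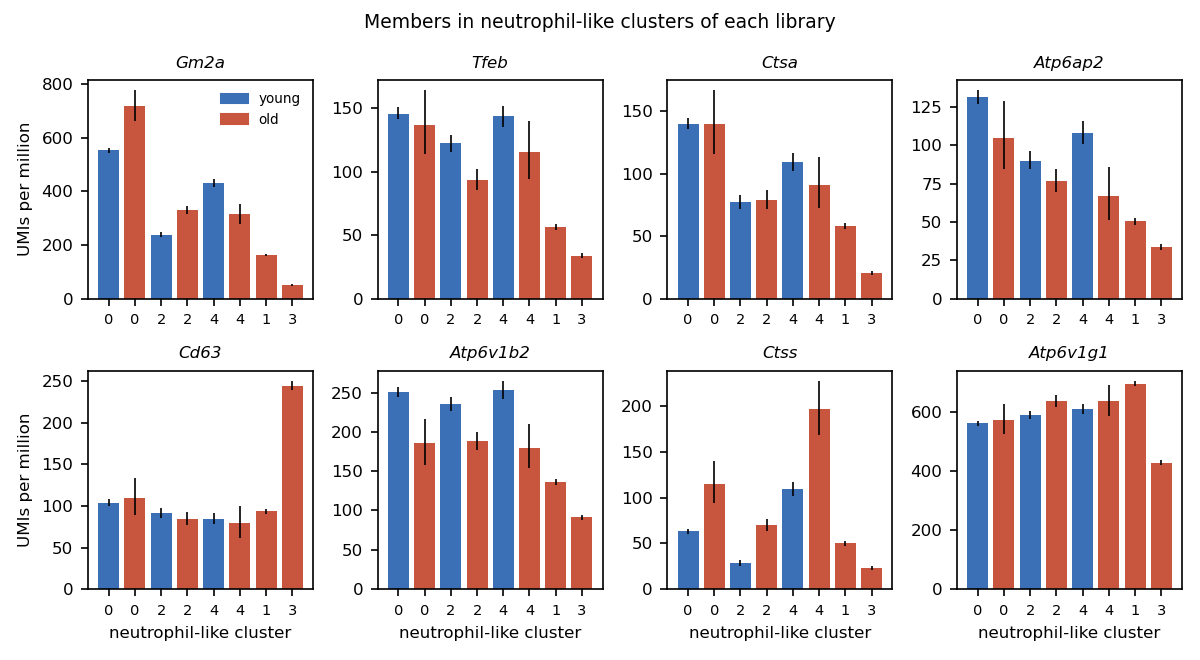
Level (CPM) of 8 members in neutrophil-like clusters 0, 2 and 4 of the young (blue) and old (red) library and in clusters 1 and 3 of the old library, with exact Poisson 95% intervals. Gm2a, Ctsa, Tfeb and Atp6v1b2 are lowest in cluster 3, where Cd63 is highest; Ctss is higher in the old library in clusters 0, 2 and 4.

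Hydrolases and the V-ATPase stood in another proportion in monocytes than in neutrophils. Since UMI counts are not scaled by length, the ratio of summed UMIs is read between classes only. Neutrophil-like cells had 1556 CPM (1544 to 1567) of the 12 hydrolases and 2848 CPM (2832 to 2864) of the 14 V-ATPase genes in the young library, or 0.546 hydrolase UMIs per V-ATPase UMI (0.541 to 0.551). In the old library these were 1139 CPM (1132 to 1147) and 2416 CPM (2405 to 2427), or 0.472 (0.468 to 0.475). Non-classical monocyte-like cells had 4160.4 and 2234 CPM in the young and 3589 and 2247 CPM in the old library, which gives 1.86 (1.82 to 1.91) and 1.6 (1.56 to 1.63). Classical monocyte-like cells had ratios of 1.57 (1.52 to 1.61) and 1.45 (1.43 to 1.46), and dendritic cell-like cells 1.34 (1.21 to 1.48) and 1.36 (1.3 to 1.43). B cell-like cells followed with 0.946 and 0.954, and T cell-like cells had 0.625 and 0.711. The order from non-classical monocytes down to neutrophils was the same in both libraries for these 6 classes. The intervals of neighbours in that order did not overlap, but they cover counting error only and not the spread between cells. Those of old dendritic and old classical cells came closest, with an upper bound of 1.431 and a lower bound of 1.433. NK cell-like cells had 0.642 (0.603 to 0.684) and 0.737 (0.6 to 0.903), the latter from 26 cells, and platelet-like cells 0.784 and 0.788.

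Single abundant genes weigh on these sums. Without Ctsd the neutrophil ratios were 0.287 and 0.244, and without Ctss the classical monocyte ratios were 0.989 and 0.986 and the non-classical ones 1.31 and 1.18. Dendritic cell-like cells had 0.970 and 1.01 without Ctss, so in the old library they then stood above classical cells. Without Atp6v1g1 the neutrophil ratios were 0.683 and 0.621. In none of these did the neutrophil value reach that of either monocyte class. Within neutrophil-like cells the ratio ran from 0.387 (0.382 to 0.393) in the old granule-high cluster 3 to 0.672 (0.643 to 0.703) in the old cluster 11. Cluster 11 is small (94 young and 412 old cells) and had the lowest median depth of the neutrophil-like clusters, at 2864.5 UMIs.

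**Figure D4:**
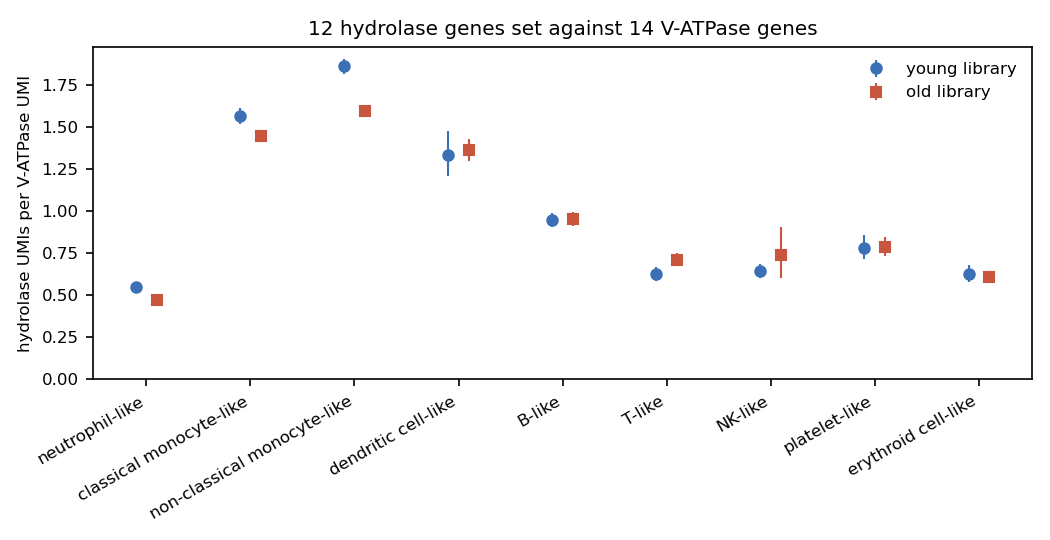
UMIs of the 12 hydrolase genes per UMI of the 14 V-ATPase genes (vertical axis) by class in the young (blue) and old (red) library, with exact 95% intervals for counting error. Non-classical and classical monocyte-like cells lie between 1.45 and 1.86, neutrophil-like cells at 0.546 and 0.472.

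Gene by gene, 6 to 9 of 10 hydrolases and 1 to 7 of 14 V-ATPase genes were higher in monocytes. Among all measured genes that share was 49.9% to 63.6%. Lgmn and Gaa were under 5 CPM in neutrophil-like cells and would count only through their monocyte level, so the counts of hydrolases are over the other 10. In non-classical monocyte-like over neutrophil-like cells their median was 1.39 (log2) for the young library and 1.81 for the old, with 6 and 8 of 10 higher and Ctsd lower in each. Over all 12 it was 1.59 and 2.43. The V-ATPase median was -0.17 and 0.28, with 1 and 2 of 14 higher and 3 and 1 lower. Over all genes measured, 51.0% and 63.6% were higher and 17.2% and 9.82% lower, with a median gene at 0.14 and 0.57. Relative to that gene the medians over 12, with Lgmn and Gaa kept in, were 1.44 and 1.86. Values over the 10 on that scale are not given here, so this rise is not read as one of hydrolases measured in both classes. The V-ATPase medians were -0.32 and -0.29, so that the old V-ATPase value changes direction. Classical monocyte-like cells had hydrolase medians of 1.60 and 2.37 over 10 genes (1.93 and 2.55 over 12) and V-ATPase medians of -0.06 and 0.58. There 7 and 9 of 10 hydrolases and 2 and 7 of 14 V-ATPase genes were higher, against 49.9% and 61.3% of all genes, and 1 of each list was lower in each library, against 21.1% and 11.9%.

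Among these 10 hydrolases, Ctss showed the widest gap to non-classical cells. It was at 1230.3 and 929.6 CPM there, 19.6-fold and 18.6-fold above the neutrophil-like level. Ctsb was at 1283 and 1043 CPM, 14.4-fold and 10.2-fold above. Ctsz, Ctsa, Ctsh and Gusb were also higher in both libraries and both monocyte classes, with folds from 2.19 to 10.3. Ctsd ran against this, with 210.5 and 257 CPM in non-classical and 152 and 337 CPM in classical cells, below the 739 and 549 CPM of neutrophil-like cells. Ctsl, Hexa and Man2b1 had folds from 0.847 to 1.9 in non-classical cells. Lgmn was at 149.7 and 120.4 CPM in non-classical cells, against 4.72 and 3.67 CPM in neutrophil-like cells.

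Among the remaining lysosomal members, Psap was at 1856 and 1311 CPM in non-classical cells, 4.12-fold and 4.14-fold above neutrophil-like cells. In classical cells it was at 2796 and 1894 CPM. Npc2 was 11.7-fold and 8.9-fold and Lamp1 6.62-fold and 8.2-fold above neutrophil-like cells in classical cells. Lamp2 stayed within 1.5-fold in 4 of 4 comparisons, with folds from 0.696 to 1.37. Cd63 was lower in every such comparison, at 15.5 and 56.6 CPM in non-classical and 7.41 and 23.9 CPM in classical cells. Tfeb was at 164 and 115 CPM in non-classical and 80.7 and 55.4 CPM in classical cells.

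Of the V-ATPase genes, Atp6v1h, a regulatory V1 subunit, was higher in both monocyte classes and both libraries, with folds from 2.66 to 3.51. Atp6v1c1 was next, with folds from 1.51 to 2.16. Atp6v1g1 was lower in all 4 comparisons, with folds from 0.372 to 0.533. The other 11 V-ATPase genes ranged from 0.599 (Atp6v0c, young non-classical) to 1.82 (Atp6ap2, old classical). The 4 V0 genes had folds from 0.599 to 1.63 (Atp6v0b, old classical), with Atp6v0c past 1.5-fold lower in young non-classical and just past 1.5-fold higher in old classical cells.

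B and T cell-like cells had lower V-ATPase levels. Their V-ATPase medians over neutrophil-like cells were -0.85 and -0.59 in B and -1.11 and -0.64 in T cell-like cells. In B cells 10 and 7 of 14 were lower and 1 higher, against 22.4% and 14.3% lower and 52.5% and 64.6% higher among all genes. In T cells 10 and 7 were lower and 1 and 2 higher, against 22.4% and 13.6% lower and 54.7% and 64.5% higher. Hydrolases were mixed, with medians over 10 genes of -0.71 and 0.0068 in B and -0.93 and -0.10 in T cell-like cells. Over 12 genes they were -0.56 and 0.23 in B and -0.68 and 0.30 in T cell-like cells, and relative to the median gene these old values turn to -0.27 and -0.17. Ctss, used in antigen presentation, was at 357 and 365 CPM in B cells, and Ctsh at 265 and 263 CPM. Lgmn was at 70 and 52.8 CPM in B and 32.9 and 20.1 CPM in T cell-like cells.

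**Figure D5:**
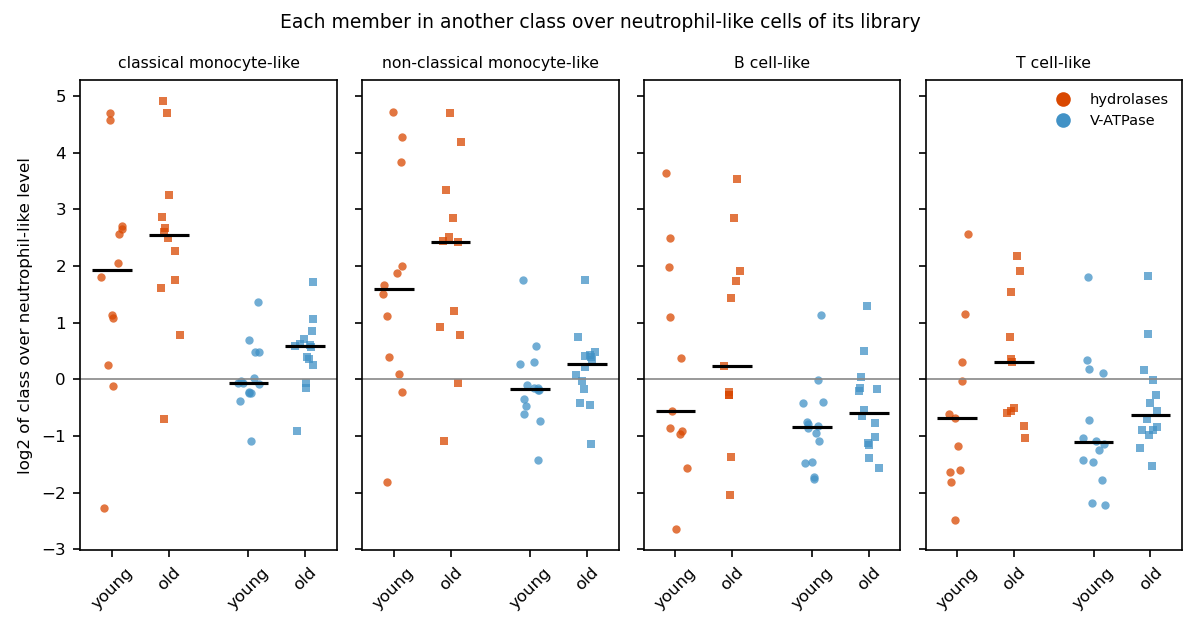
Log2 of the level in 4 classes over that in neutrophil-like cells of the same library (vertical axis); each point is 1 measured gene, orange for hydrolases and blue for V-ATPase, circles for young and squares for old, and bars are medians. In monocyte-like cells the medians of all 12 hydrolases lie between 1.59 and 2.55 (1.39 and 2.37 without Lgmn and Gaa) and the V-ATPase medians between -0.17 and 0.58; relative to the median gene the old non-classical V-ATPase value is -0.29.

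RNA set free from neutrophils can add to other classes. Taking S100a8 in each class as wholly free RNA, an upper estimate, free RNA could supply a median of 4.93% and 7.04% of a member's UMIs in classical and 11.05% and 16.1% in non-classical cells (young and old). In B cell-like cells it was 21.7% and 16.3%. In erythroid cell-like cells it was 89.5% and 87.3%, so most of their member levels are not read as expression. Cd63 reached 93.9% and 85.3% in classical and 89.6% and 75.5% in non-classical cells, so it is close to background there. For Ctsd the upper estimate was 48.2% and 59.4% in non-classical cells.

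The same comparison of the libraries was made in other classes. In classical monocyte-like cells (175 young and 1198 old) the hydrolase median old over young was 0.02 and the V-ATPase median 0.09, with 3 of 36 members higher and 1 lower, against 5.35% and 12.3% of all genes. In non-classical cells (454 and 503) they were -0.06 and -0.02, with Cd63 higher and none lower of 36, against 4.35% and 9.13%; relative to a median gene of -0.16 they were 0.11 and 0.14. In B cell-like cells they were 0.08 and 0.04, with 1 of 36 higher and none lower, against 10.3% and 11.9%. That 1 was Psap, at 237 and 383 CPM. T cell-like cells had 0.43 and 0.14, with 6 of 35 higher and 2 lower, against 11% and 12.9%. Ctsh went from 11.1 to 51.5 CPM there and Lamp1 from 60.9 to 117 CPM, while Lgmn went from 32.9 to 20.1 CPM. Dendritic cell-like cells, of which the young library held 21, had 8 of 36 higher and 3 lower, against 17.5% and 20.2%, with Gm2a at 1035 and 574 CPM. Tfeb was also lower there, at 96.0 and 51.3 CPM. Whether these ratios differ from those of neutrophil-like cells was not tested.

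Ctsd and Ctsl were the hydrolases past 1.5-fold in classical monocyte-like cells. Ctsd went from 152 to 337 CPM (2.22-fold, 2 to 2.46) and Ctsl from 36.6 to 123 CPM (3.37-fold, 2.74 to 4.18). Most old classical cells were of cluster 6 (2 young and 794 old cells) and most young ones of cluster 17 (173 and 404). Within cluster 17, Ctsd went from 149 to 241 CPM and Ctsl from 36.2 to 73 CPM, folds of 1.62 and 2.02. Psap went the other way, from 2796 to 1894 CPM, and within cluster 17 from 2831 to 2256 CPM, a fold of 0.797.

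The members stand among other lysosomal genes, listed by function. Of 25 measured among 40 other hydrolases, 2 were higher and 13 lower in old neutrophil-like cells, with a median of -0.62, against 7.86% higher and 50.1% lower and a median gene of -0.68 over all genes, which is close to these shares. Ctsc, the dipeptidyl peptidase that activates granule proteases, went from 7.39 to 33.7 CPM, and Galns from 8.77 to 21.6 CPM. Manba, Hgsnat and Ppt1 had the lowest ratios, with 57.7 and 14.1 CPM, 156 and 46.8 CPM, and 377 and 138 CPM. Of the 3 measured among 11 other V-ATPase subunits, the V0 subunit Tcirg1 went from 17.9 to 11 CPM, Atp6v0a1 from 214 to 154 CPM and Atp6v0a2 from 17.3 to 16.3 CPM. Of 19 measured among 26 other membrane proteins, 9 were lower and none higher, against the same 50.1% and 7.86%. The lowest ratios were those of the 2-pore channel Tpcn1 (43.6 and 9.79 CPM), Scarb2 (146 and 47.3 CPM) and Slc15a4 (25.2 and 9.11 CPM).

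Among 16 genes of TFEB relatives and nutrient signalling, 14 were measured, 1 was higher and 6 lower, with a median of -0.54, against 7.86% and 50.1% of all genes. Mitf, a relative of Tfeb, went from 118 to 33 CPM and Tfe3 from 38.5 to 26.8 CPM. Fnip1 and Flcn, partners that act on the kinase pathway holding TFEB relatives in the cytosol, went from 277 to 81.5 CPM and from 24.1 to 7.28 CPM. Lamtor4 and Lamtor1, scaffold subunits of the lysosome surface, went from 119 to 197 CPM and from 82.7 to 113 CPM. Of 13 sorting genes, 10 were measured, 1 was higher and 7 lower, against the same shares of all genes. The mannose 6-phosphate receptor Igf2r went from 16.2 to 5.59 CPM and the adaptor gene Ap1s1 from 4.74 to 10.04 CPM. The cathepsin inhibitor Cst3 went from 769 to 415 CPM and Cstb from 86.5 to 79.3 CPM.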

How the data were processed

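Single cells of mouse blood were counted with Cell Ranger 7.2.0, per the file headers, against mm10, per the submitters' processing notes. The labels name BD Rhapsody capture, and how such reads came to be counted with Cell Ranger is not stated. The deposited values are raw UMI counts per gene and cell. The annotation release, use of intron and strand information and cell calling are not given in the sources used here. Without strand, reads of the 11 members that overlap a gene on the opposite strand cannot be told apart from that gene's, and reads of Cd63 and Atp6v0c may be shared with pseudogenes. On the same strand, 4 members (Ctsd, Ctsl, Ctss and Atp6v1e1) overlap another gene, which strand information would not separate.

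Barcodes under 200 genes or over 20% mitochondrial UMIs were removed. Both libraries were clustered together with scanpy 1.11.5 (2000 variable genes per library, 30 principal components, 15 neighbours, Leiden resolution 0.6), and the cluster with the highest Ccr2 was split at 0.2. A cluster was named when at least 3 markers of a list reached 20 CPM and 25% of their highest cluster, and stayed unnamed where another type's markers led it. Clusters 5, 15 and 16 stayed unnamed. No doublet caller was used; leaving out cells with 0.5% or more of UMIs from other lineages was an alternative. Counts were summed per class and library and scaled to 1000000 UMIs (CPM), log2 ratios and calls used 1 CPM added, and the folds printed are ratios of CPM with nothing added. Intervals are exact (Poisson, or Clopper-Pearson for shares and ratios). The ratio and interval steps were tested on simulated Poisson counts without spread between cells or libraries. The intervals assume that same model, so this checks the calculation only. The promoter windows and the gene positions came from RefSeq (GRCm38.p6) and GENCODE (GRCm38), with 29 and 36 of 36 members matched.

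All members were named. Of each other lysosomal list, the 3 highest and 3 lowest ratios at 10 CPM or more could be named, with Tcirg1, Tfe3 and Mitf. Not every gene that this rule names is reported here. The members and lists were chosen with earlier results of these data known. Of the alternatives, 19 were planned and 3 were added after seeing the data.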

Additional observations from a re-analysis of the deposited data

Results flagged for a closer look

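Ctsb, the cathepsin B gene, went in opposite directions with age in a pair of minor classes. In erythroid cell-like cells it was higher in the old library (71.1 and 113 CPM, 0.66 on the log2 scale), and in platelet-like cells it was lower (79.9 and 51 CPM, -0.64), which makes a difference of 1.29. The difference was not tested, since each age has 1 library. Platelet-like cells held a median of 858 and 866 UMIs, and most member levels in erythroid cell-like cells are close to background. The upper estimate of free neutrophil RNA for Ctsb was 26.1% and 22.5% in erythroid cell-like and 24.4% and 31.6% in platelet-like cells, beside medians over the members of 89.5% and 87.3%, and 40.5% and 16.8%.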

How the results depend on the processing

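No paired analysis was possible because each age has 1 library, and no library could be left out. The hydrolase median in old over young neutrophil-like cells, -0.44, was -0.50 when cells needed 500 genes and 10% or less mitochondrial UMIs, -0.33 with cells thinned to 1000 UMIs, -0.26 with equal weight per cell and -0.090 without S100a8 and S100a9. It was -0.028 as the mean within clusters 0, 2 and 4, -0.49 without cells holding other lineages' markers, -0.22 without cells with 1% granule genes, -0.50 without cluster 11 and -0.25 without cluster 3. The filter on granule genes took out 1.37% of young and 44.9% of old neutrophil-like cells. The hydrolase median turned to 0.23 relative to the median gene and to 0.20 over all filtered cells. The V-ATPase median, -0.18, was -0.020 over all filtered cells, -0.062 within clusters and -0.078 without accessory members, and turned to 0.49 relative to the median gene and 0.15 without S100a8 and S100a9.

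The 1 member counted higher became 0 at Leiden resolution 0.4, with 500 genes, when thinned and with equal weight, 12 relative to the median gene, 2 without S100a8 and S100a9 and 5 over all filtered cells. The 10 counted lower became 4 relative to the median gene, 6 without S100a8 and S100a9, 4 over all filtered cells and 0 within clusters. Of 36 members, 26 turned direction in at least 1 of 18 alternatives and 10 in none, and Ctss kept its direction in 10 of 18. Those that turned among members with ratios past 1.5-fold were Gaa (0.12, under 5 CPM) and Gusb (0.20) over all filtered cells, Gm2a (0.13) and Atp6ap1 (0.044) within clusters, and Npc1 (0.063) and Atp6ap1 (0.043) relative to the median gene. Cd63 turned to -0.044 within clusters, -0.28 without granule-gene cells and -0.030 without cluster 3.

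For non-classical monocyte-like over neutrophil-like cells, the old hydrolase median of 2.43 was 1.82 with 5 CPM added, 2.15 thinned, 2.20 with equal weight, 1.86 relative to the median gene, 2.06 without S100a8 and S100a9, 2.54 without mitochondrial and ribosomal protein genes and 1.81 without Lgmn and Gaa. The young V-ATPase median of -0.17 was -0.32 relative to the median gene, -0.31 without S100a8 and S100a9 and -0.040 without mitochondrial and ribosomal protein genes. The old one, 0.28, was 0.11 thinned, 0.17 with equal weight and 0.39 without mitochondrial and ribosomal protein genes, and turned to -0.29 relative to the median gene and to -0.095 without S100a8 and S100a9. The young hydrolase median of 1.59 was 1.39 without Lgmn and Gaa. Its shifts were each smaller than the counting interval of the member nearest to it, since a median has no interval here. The cause of these shifts was not tested. The removal of clusters 11 and 3 and of Lgmn and Gaa was chosen after seeing the data. Depth limits Lgmn, Gaa and Mcoln1, which were under 5 CPM in neutrophil-like cells.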

Other observations

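Cd63, the tetraspanin gene, was higher in the old library in platelet-like cells (54.4 CPM from 30 UMIs, and 238 CPM), where the upper estimate of free neutrophil RNA was 40.5% and 10.2% of its UMIs. In dendritic cell-like cells it was at 2.67 CPM, which is 1 UMI, and at 107 CPM, of which the estimate was 7.14%. In both monocyte classes and in B, T and erythroid cell-like cells that estimate was 72.4% or more of Cd63 in each library, so its ratios between the libraries are not read as expression there.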
